A study of Mus musculus with 40 samples.

Results

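The 10 genes described here, *Gfap*, *Vim*, *Serpina3n*, *Lcn2*, *Timp1*, *Osmr*, *Cd44*, *S1pr3*, *Cd109* and *Steap4*, are commonly listed as markers of reactive astrocytes. They were chosen by name, with earlier results of these data known, as the array's probes annotated with 1 of these 10 symbols. They had 15 of the 55589 probes used and 10 of the 36362 gene names on the array. RNA of cerebral cortex and of cerebellum was read on 40 one-colour Agilent arrays, 4 for each of 10 groups. All mice were on the C57Bl/6 background. In each region, young wild-type mice of 2 months and aged wild-type mice of 29 months ate the normal diet with 36 mg α-tocopherol per kg. A further wild-type group of 29 months ate a diet deficient in α-tocopherol. The 2 *Ttpa*-/- groups, also of 29 months, ate either the deficient diet or one supplemented to 600 mg α-tocopherol per kg. These groups are called young, aged, deficient wild-type, deficient *Ttpa*-/- and supplemented *Ttpa*-/- below. No young *Ttpa*-/- group, no *Ttpa*-/- group on the normal diet and no supplemented wild-type group was analysed here, so genotype and diet were varied together in some comparisons. The arrays of a group were from 4 mice, and whether cortex and cerebellum of 1 replicate number came from 1 mouse was not stated in the sources used here.

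Astrocytes answer injury, inflammation and ageing with a change of state called reactive astrogliosis, in which intermediate filament genes rise and secreted proteins, receptors and cell surface proteins are induced. *Ttpa* encodes the α-tocopherol transfer protein, which the liver needs to pass vitamin E to the circulation, and mice without it have very little vitamin E in the brain. Cytokines of the interleukin-6 family, which act through the shared receptor chain gp130 and the transcription factor STAT3, are a well-known inducer of several of these genes, and *Osmr* encodes the receptor chain for one of them, oncostatin M.

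Promoter sequences of the members are shown because several members rose together with age and because STAT and AP-1 factors are known regulators of astrocyte reactivity. RefSeq promoters of the mouse build GRCm38.p6, 250 bases before and 50 bases after the start site, were found for 9 members. Both motifs were searched on both strands, and the 2 motifs did not overlap in any member. The STAT motif TTCNNNGAA was in 2 of the 9 promoters, of *Gfap* and *Steap4*, against 8.3% of 32851 promoters of that length. The AP-1 motif TGANTCA was in 1 of the 9, of *Osmr*, against 7.81%. In the sequences, written 5′ to 3′ on the gene's strand, capitals mark the matches, and *Serpina3n* and *Lcn2*, the members with the largest change with age and the widest spread between arrays, are shown without a match. The windows are chr11:102897151-102897450 on the minus strand for *Gfap*, chr5:7960222-7960521 on the plus strand for *Steap4*, chr15:6874264-6874563 on the minus strand for *Osmr*, chr12:104406458-104406757 on the plus strand for *Serpina3n* and chr2:32387690-32387989 on the minus strand for *Lcn2*.
Gfap: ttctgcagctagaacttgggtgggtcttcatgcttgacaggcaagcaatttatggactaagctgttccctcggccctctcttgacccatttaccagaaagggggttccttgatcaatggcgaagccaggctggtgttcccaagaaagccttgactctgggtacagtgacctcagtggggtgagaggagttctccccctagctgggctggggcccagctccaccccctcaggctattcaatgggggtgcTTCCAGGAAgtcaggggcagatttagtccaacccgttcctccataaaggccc
Steap4: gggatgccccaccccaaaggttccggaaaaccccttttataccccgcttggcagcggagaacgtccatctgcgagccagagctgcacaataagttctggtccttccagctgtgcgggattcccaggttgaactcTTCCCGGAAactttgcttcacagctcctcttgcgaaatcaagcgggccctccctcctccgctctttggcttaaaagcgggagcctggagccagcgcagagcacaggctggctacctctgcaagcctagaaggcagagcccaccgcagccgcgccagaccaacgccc
Osmr: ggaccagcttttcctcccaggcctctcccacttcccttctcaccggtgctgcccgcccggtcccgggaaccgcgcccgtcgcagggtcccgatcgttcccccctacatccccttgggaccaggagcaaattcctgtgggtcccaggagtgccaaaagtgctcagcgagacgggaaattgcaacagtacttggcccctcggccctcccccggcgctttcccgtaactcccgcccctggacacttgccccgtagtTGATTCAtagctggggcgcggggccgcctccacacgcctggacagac
Serpina3n: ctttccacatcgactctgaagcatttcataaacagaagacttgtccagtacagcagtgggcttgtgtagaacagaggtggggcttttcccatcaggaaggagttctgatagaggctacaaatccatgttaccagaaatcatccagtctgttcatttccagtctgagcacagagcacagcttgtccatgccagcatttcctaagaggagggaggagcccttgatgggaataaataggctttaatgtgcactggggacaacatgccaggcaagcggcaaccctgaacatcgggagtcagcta
Lcn2: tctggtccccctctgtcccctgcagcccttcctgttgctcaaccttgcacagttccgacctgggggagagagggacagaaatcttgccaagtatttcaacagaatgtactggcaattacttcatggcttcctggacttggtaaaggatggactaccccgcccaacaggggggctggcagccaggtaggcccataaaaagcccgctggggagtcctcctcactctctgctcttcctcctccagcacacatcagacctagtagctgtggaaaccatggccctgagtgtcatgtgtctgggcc

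In *Gfap* the STAT match, TTCCAGGAA, began 2 bases before the start site and ran over it. In *Osmr* the AP-1 match, TGATTCA, lay just after the start site. In *Steap4* the STAT match, TTCCCGGAA, began 116 bases before the start site, and *Steap4* itself was not detected in either region. These matches describe the letters of the windows and were not tested for binding.

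Levels are given as the log2 of the array's processed signal minus the log2 of that array's 75th percentile, here called the log2 level, so that 0 is the level that 75% of probes did not exceed. Levels of different probes are not compared with each other. A change was called where limma's moderated test, adjusted by Benjamini-Hochberg over all probes tested in that comparison, gave an adjusted p under 0.05 and the fold change was over 1.5, which is 0.585 on the log2 scale. A probe entered the test if all 4 arrays of 1 or more of the compared groups had it well above background. *Steap4* was above background on 0 of 40 arrays and was never tested. *Cd109* was above background on 34 arrays, *Serpina3n* on 39, and the other 7 genes, by their brightest probe, on all 40.

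Across arrays the 75th percentile ran from 365 to 925, and 51.4% to 61.4% of probes were well above background. Arrays of 1 group correlated with each other at 0.973 to 0.993 over all probes. The arrays came on 5 slides of 8, so that young and aged cortex shared a slide, as did aged and deficient wild-type cerebellum, and as did the 2 *Ttpa*-/- cerebellum groups. In every other comparison slide and group cannot be told apart. One *Ttpa* probe was above background on all 12 wild-type and on 1 of 8 *Ttpa*-/- cerebellum arrays. In deficient *Ttpa*-/- cerebellum, where no array had it well above background, it was at least 2.64-fold lower than in the aged group, at mean log2 levels of -6.76 and -3.34 (adjusted p = 4.16e-08). In the cortex it was above background on 1 of 12 wild-type and 0 of 8 *Ttpa*-/- arrays, so the genotype could not be checked there. In these bulk samples fewer astrocytes and less RNA per astrocyte cannot be told apart.

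**Figure D1:**
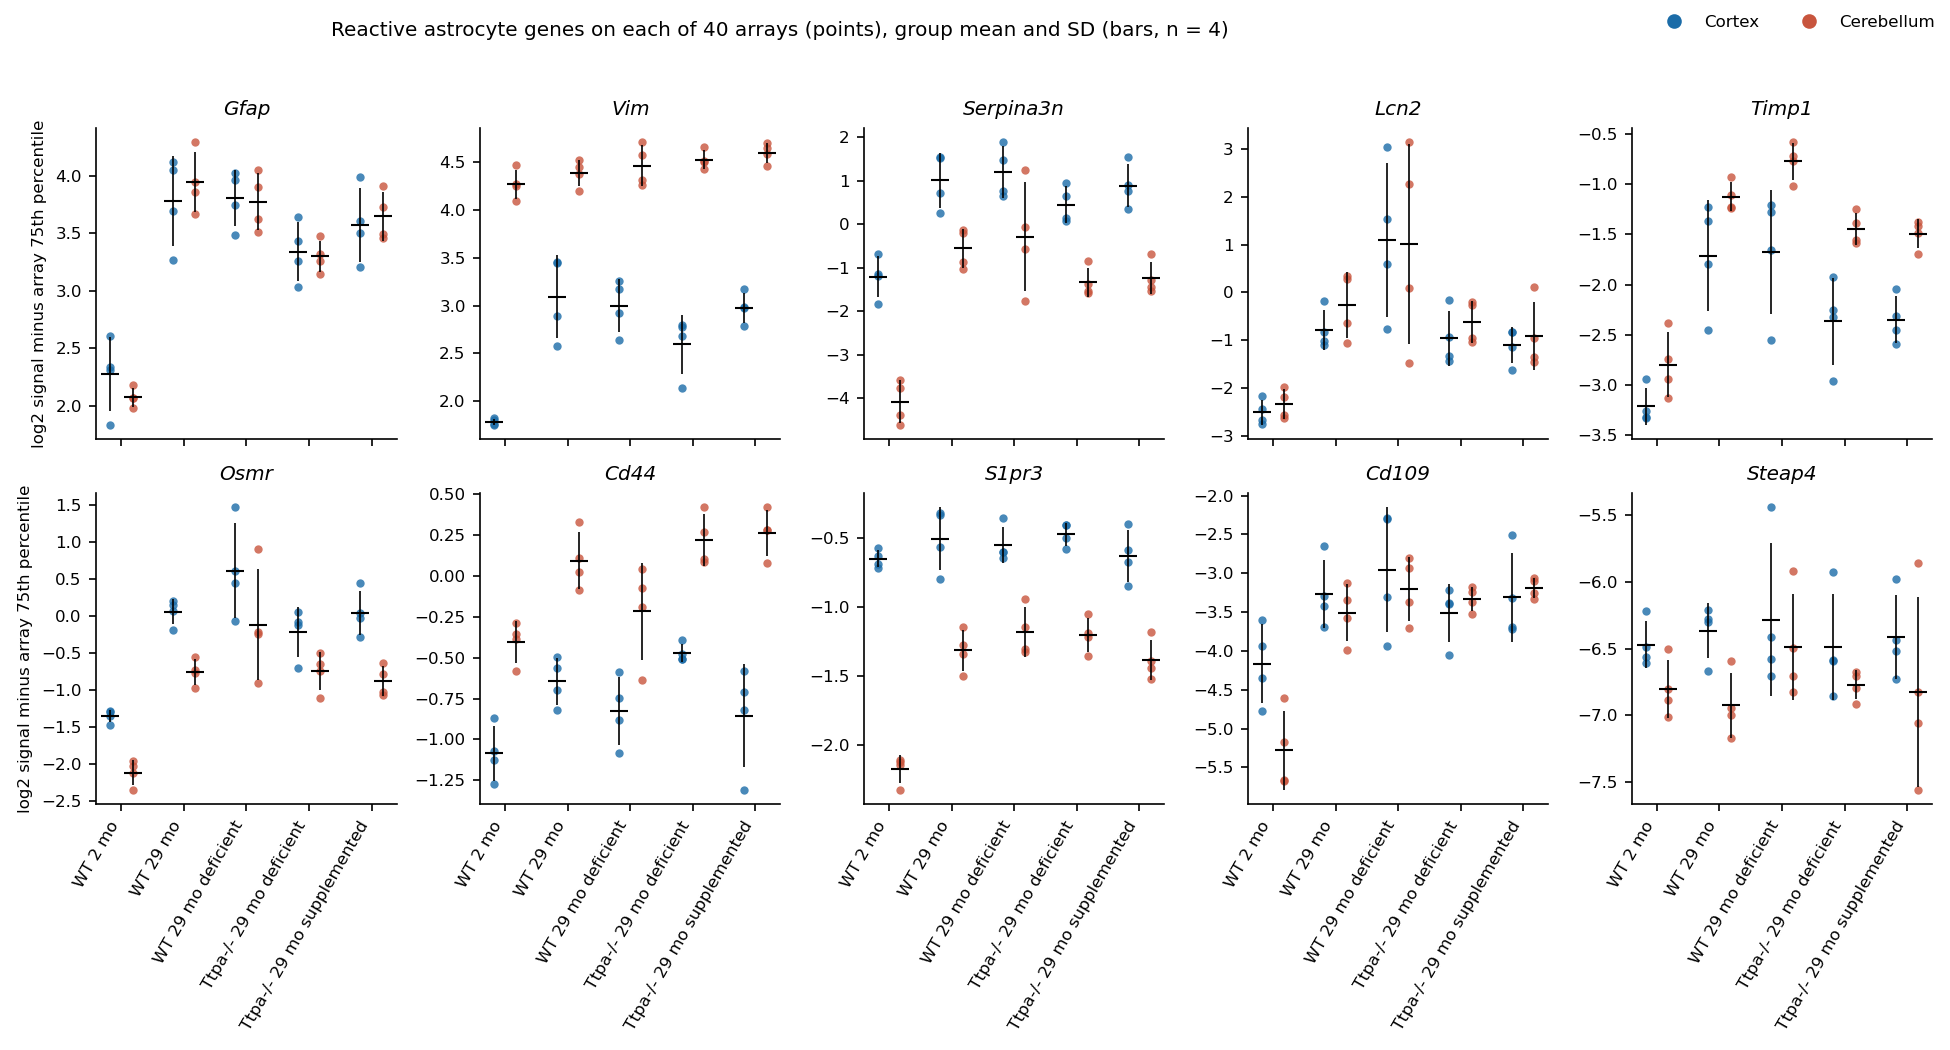
Log2 level of each of the 10 genes (brightest probe) on all 40 arrays, by group, in cortex (blue) and cerebellum (red). Points are arrays, and bars are the mean and SD of 4. *Gfap*, *Serpina3n*, *Timp1*, *Lcn2* and *Osmr* sat higher in the aged than in the young groups of both regions, *Vim* was high in all cerebellum groups, and *Lcn2* spread most widely in the deficient wild-type groups.

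Several members were higher in the aged than in the young cortex. The comparison of aged with young wild-type cortex asks what ageing alone did, within 1 slide, and 5 of the 9 members tested were called higher and 0 lower, against 2.09% of 28043 probes called in either direction. In 7 members the aged and young arrays did not overlap, against 14% of probes. The median log2 change of all 10 members, *Steap4* included, was 1.36, and that of all probes tested was -0.03.

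*Gfap* encodes glial fibrillary acidic protein, the main intermediate filament of astrocytes. Its log2 level was 2.61, 2.31, 2.34 and 1.84 on the 4 young cortex arrays and 3.69, 4.05, 4.11 and 3.27 on the 4 aged ones. Every aged array was above every young one. *Gfap* rose by 1.51 ± 0.18 (SE) on the log2 scale, 2.84-fold (limma, adjusted p = 1.57e-06). *Vim*, for vimentin, the filament protein that joins *Gfap* in reactive cells, was at 1.82, 1.81, 1.76 and 1.77 in young and at 2.89, 3.44, 3.46 and 2.58 in aged cortex. The young arrays lay close together and the aged arrays spread widely, without overlap. *Vim* rose by 1.30 ± 0.16 (SE), 2.47-fold (adjusted p = 1.33e-06).

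Among the secreted members, *Serpina3n*, a serine protease inhibitor, was at -0.67, -1.14, -1.20 and -1.83 in young and at 0.71, 1.53, 1.55 and 0.25 in aged cortex. The groups did not overlap, and the change of 2.22 ± 0.42 (SE), 4.66-fold, was the largest of the members here (adjusted p = 0.00100). *Timp1*, an inhibitor of matrix metalloproteinases, was at -3.33, -3.26, -2.94 and -3.32 in young and at -1.80, -1.37, -1.22 and -2.46 in aged cortex. It rose by 1.50 ± 0.24 (SE), 2.83-fold (adjusted p = 1.03e-04), and by 0.80 with normexp background correction. *Lcn2*, for lipocalin 2, an iron-siderophore binding protein, was at -2.43, -2.67, -2.75 and -2.17 in young and at -1.02, -1.10, -0.83 and -0.17 in aged cortex. All 4 aged arrays were above all 4 young ones, but the change of 1.72 ± 0.65 (SE) did not pass the test (adjusted p = 0.155). Its SE came from all 10 groups and was the largest of the members.

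Of the receptors and surface proteins, *Osmr* was at -1.30, -1.34, -1.28 and -1.46 in young and at 0.07, 0.15, 0.21 and -0.18 in aged cortex, without overlap. It rose by 1.41 ± 0.26 (SE), 2.65-fold (adjusted p = 7.25e-04). *Cd44*, the hyaluronan receptor, also did not overlap between the groups, at -1.27 to -0.87 in young and -0.82 to -0.50 in aged cortex, but its change of 0.44 ± 0.14 (SE) did not pass (adjusted p = 0.0668). *Cd109*, a GPI-anchored protein, changed by 0.90 ± 0.32 (SE; adjusted p = 0.123) and *S1pr3*, a receptor for sphingosine 1-phosphate, by 0.15 ± 0.11 (SE; adjusted p = 0.593), both with overlapping groups.

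The aged cerebellum differed from the young one in 7 of the 9 members tested, all higher, against 5.03% of 30627 probes called in either direction. In 8 members the groups did not overlap, against 19.1% of probes. The median change of the 10 members was 1.52 and that of all probes tested -0.01. With normexp background correction the members' medians were 0.96 in cortex and 0.84 in cerebellum. Young and aged cerebellum were on different slides.

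*Gfap* was at 1.98, 2.07, 2.18 and 2.07 in young and at 3.67, 3.95, 3.86 and 4.29 in aged cerebellum, a rise of 1.87 ± 0.18 (SE), 3.64-fold (adjusted p = 4.56e-09). *Vim* was at 4.10, 4.47, 4.27 and 4.25 in young and at 4.38, 4.45, 4.20 and 4.52 in aged cerebellum. The *Vim* groups overlapped, and the difference was 0.12 ± 0.16 (SE; adjusted p = 0.763), with a 95% interval of -0.20 to 0.44.

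*Serpina3n* showed the largest change of all members, from -4.61, -4.40, -3.77 and -3.58 in young to -1.03, -0.86, -0.13 and -0.20 in aged cerebellum. The rise was 3.54 ± 0.42 (SE), 11.6-fold (adjusted p = 1.97e-07). It was above background on 3 of the 4 young arrays, and with normexp background correction the rise was 2.22. *Timp1* rose from -3.13, -2.94, -2.74 and -2.38 to -1.10, -1.24, -1.22 and -0.93, by 1.67 ± 0.24 (SE), 3.19-fold (adjusted p = 5.45e-06). *Lcn2* was at -2.57, -1.97, -2.62 and -2.19 in young and at 0.35, -1.05, -0.64 and 0.29 in aged cerebellum. Its groups did not overlap, and it rose by 2.07 ± 0.65 (SE), 4.20-fold (adjusted p = 0.0349), a call lost in 6 of the 8 fits that left out 1 array.

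*Osmr* rose from -2.34, -2.03, -1.96 and -2.11 to -0.76, -0.96, -0.73 and -0.55, by 1.36 ± 0.26 (SE), 2.57-fold (adjusted p = 3.91e-04). *S1pr3* rose from -2.12, -2.10, -2.32 and -2.14 to -1.50, -1.14, -1.34 and -1.28, by 0.86 ± 0.11 (SE), 1.82-fold (adjusted p = 5.85e-07). *Cd109* was not well above background on any of the 4 young cerebellum arrays and was on all 4 aged ones, at mean log2 levels of -5.28 and -3.51. It was at least 2.41-fold higher in the aged group, taking the dimmest signals well above background as the limit (adjusted p = 2.17e-04). With normexp its change was 0.49 and the call was lost. *Cd44* had an adjusted p of 0.0161 but a change of 0.50 ± 0.14 (SE), under the 1.5-fold limit, with groups that did not overlap.

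The test of the regional difference in the change with age called 2 members, against 1.46% of 31372 probes. *Vim* rose 1.19 ± 0.22 (SE) more on the log2 scale in cortex than in cerebellum (adjusted p = 0.00208). *S1pr3* rose 0.71 ± 0.15 (SE) more in cerebellum than in cortex (adjusted p = 0.00754), a call lost when the arrays were scaled by their median or corrected by normexp. For *Serpina3n* the difference was -1.32 ± 0.59 (SE; adjusted p = 0.358), cortex minus cerebellum, and for *Gfap*, *Timp1*, *Lcn2*, *Osmr*, *Cd44* and *Cd109* it was between -0.87 and 0.05 and did not pass.

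**Figure D2:**
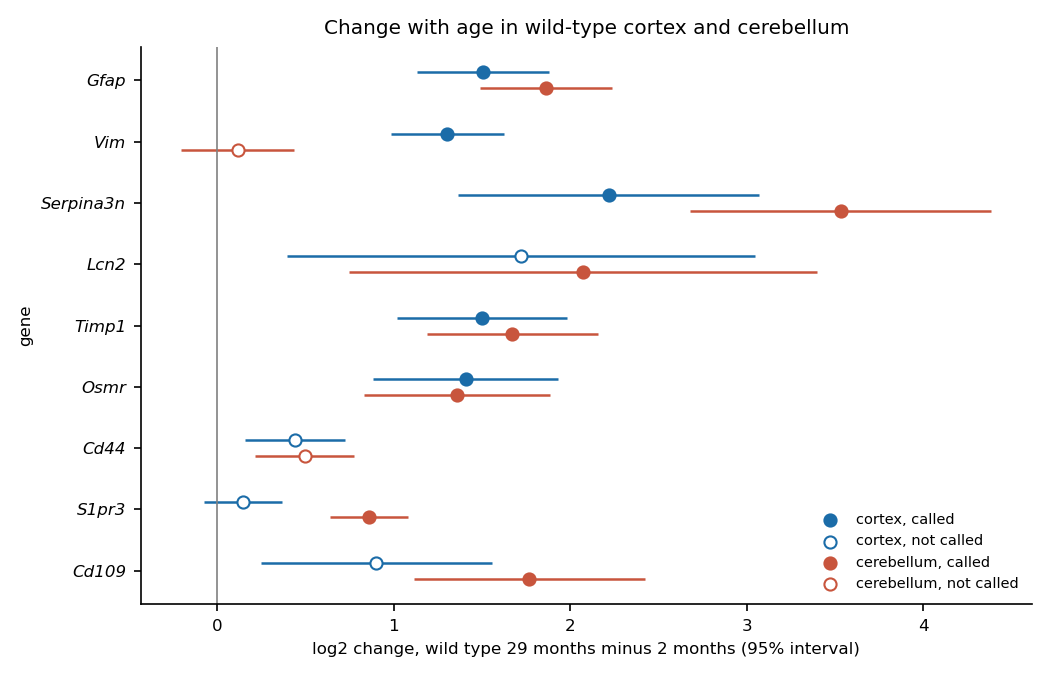
Log2 change from young to aged wild-type tissue for 9 members, cortex in blue and cerebellum in red, with the 95% interval of the limma fit. Filled points were called. *Vim* changed by 1.30 in cortex and 0.12 in cerebellum, and *S1pr3* by 0.15 and 0.86. The intervals of *Gfap*, *Serpina3n*, *Timp1*, *Lcn2*, *Osmr*, *Cd44* and *Cd109* overlapped between the regions.

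The regions differed in their levels before ageing. At 2 months, 5 of the 8 members tested were called between cortex and cerebellum, where 38.4% of 30203 probes were called. The groups of these 5 did not overlap, as for 58.1% of probes. *Vim* was 5.58-fold lower in cortex (-2.48 ± 0.16 on the log2 scale, adjusted p = 4.03e-15) and *Cd44* 1.61-fold lower (-0.68 ± 0.14, adjusted p = 7.41e-05). *Serpina3n* was 7.35-fold higher in cortex (2.88 ± 0.42, adjusted p = 4.38e-07; 1.75 with normexp, and above background on 3 of 4 young cerebellum arrays), *S1pr3* 2.88-fold (1.53 ± 0.11, adjusted p = 5.74e-14) and *Osmr* 1.70-fold (0.77 ± 0.26, adjusted p = 0.0108). With normexp *Osmr* (0.58) and *Cd44* (-0.51) lost the call, and *Cd44* also lost it as the mean of its probes (-0.26). *Gfap* differed by 0.20 ± 0.18 (adjusted p = 0.352), with a 95% interval of -0.17 to 0.57. At 29 months 6 of 9 were called, against 33.6% of probes, and 5 did not overlap, against 56.4%. The same 5 genes were called in the same direction, by -1.29 for *Vim*, -0.74 for *Cd44*, 1.56 for *Serpina3n*, 0.81 for *S1pr3* and 0.81 for *Osmr*, and *Timp1* was lower in cortex by 0.59 ± 0.24 on the log2 scale (adjusted p = 0.0344). The *Timp1* groups overlapped, and its call was lost in 4 of 8 fits without 1 array. At 29 months *Cd44* again lost the call as the mean of its probes (-0.31).

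Other genes tied to astrocyte reactivity were read from lists chosen beside the members, with earlier results of these data known. Of all probes tested, 2.09% were called in either direction with age in cortex and 5.03% in cerebellum. Of the 4 further genes raised in both main types of reactivity, 2 were called higher in the aged cortex and 3 in the aged cerebellum. *Cxcl10*, a chemokine of the interferon response, rose by 2.45 (adjusted p = 9.03e-06) in cortex and 4.02 (adjusted p = 9.45e-11) in cerebellum, and *Aspg*, an asparaginase, by 1.55 (adjusted p = 1.64e-07) and 1.57 (adjusted p = 2.23e-08). Of the A1-like list, 3 of 10 genes tested rose in cortex and 5 of 10 in cerebellum. The immunoproteasome subunit gene *Psmb8* rose by 0.95 (adjusted p = 0.00311) and 1.91 (adjusted p = 1.36e-08), *H2-D1*, of the major histocompatibility complex, by 0.99 in cortex (adjusted p = 7.02e-05), and the interferon-induced *Gbp2* by 1.46 in cerebellum (adjusted p = 0.0380). Of the A2-like list without members, 1 of 7 rose in cortex and 2 of 7 in cerebellum, among them the co-receptor *Cd14*, by 0.85 and 1.29. The median changes over the genes tested were 0.65 and 0.74 for the A1-like list and 0.43 and 0.23 for the A2-like list. Of 14 genes of gp130 and STAT3 signalling tested, 2 rose in aged cortex, the feedback inhibitor *Socs3* by 0.89 (adjusted p = 0.0315) and the cytokine *Cntf* by 0.61 (adjusted p = 0.0193). In the cerebellum 0 of 14 were called, by the same limma test.

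Astrocyte genes not tied to reactivity, such as the water channel gene *Aqp4* and the glutamate transporter gene *Slc1a2*, were read as a further list. That list also held *Nes*, for nestin, which reactive astrocytes can express too. Of 15 tested, 0 were called in aged cortex, with a median change of 0.06, and 1 in aged cerebellum, the connexin gene *Gjb6* at 0.69 (adjusted p = 0.0131), with a median of 0.09. The shares of all probes called there were 2.09% in cortex and 5.03% in cerebellum. Of the 11 microglial genes, 4 rose in aged cortex and 9 in aged cerebellum, among them the lysosomal gene *Cd68* by 0.93 (adjusted p = 0.0124) and 2.99 (adjusted p = 1.22e-11). Their summed signal relative to the 75th percentile was 151 to 170 in young and 142 to 191 in aged cortex, and 90.2 to 99.1 in young and 121 to 135 in aged cerebellum. Their part in the members' changes was not tested.

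Markers of blood cells and of neighbouring tissue also moved with age. The summed signal of the neutrophil list was 0.33 to 0.61 in young and 1.70 to 2.06 in aged cortex, and 1.46 to 4.91 and 5.23 to 53.3 in young and aged cerebellum. That of the red cell list was 0.47 to 2.16 and 5.21 to 12.3 in cortex, and 3.33 to 8.14 and 13.1 to 95.9 in cerebellum. Of the 5 neutrophil genes on the array, *Ngp* and *Retnlg* were above background on 0 arrays of young and aged cortex. The striatal list was lower in aged cortex, at 34.3 to 45.04 against 64.8 to 83.5 in young cortex. Its sum was 50.16 to 54.52 in young and 47.45 to 64.65 in aged cerebellum, above that of aged cortex. The sum therefore cannot be read as striatal tissue alone. In the cerebellum the choroid plexus list was 9.22 to 251 in young and 6.31 to 7.27 in aged arrays. The part of these cells in the members' changes was not tested.

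Within the cortex groups, several members moved with the choroid plexus list. In 3 cortex arrays its summed signal was under 20, at 3.14 in young array 4, 5.16 in aged array 4 and 12.9 in deficient *Ttpa*-/- array 1, while the next lowest cortex array was at 40.3. Those arrays were the lowest of their groups for *Gfap* and *Serpina3n*, as the values above show for young and aged cortex. The correlation over 20 cortex arrays of the deviations from the group means was 0.76 between the choroid plexus list and *Gfap*, 0.66 with *Serpina3n*, 0.62 with *Cd109*, 0.60 with *Vim*, 0.56 with *Timp1*, 0.48 with *Osmr* and 0.01 with *Lcn2*. In the cerebellum it was -0.16 for *Gfap*, -0.32 for *Serpina3n*, -0.65 for *Timp1* and 0.54 for *Cd109*. These are descriptions of arrays that share groups and slides. Without the 3 arrays, a setting chosen after the data were seen, 5 members were again called higher in aged cortex, *Gfap* by 1.53, *Vim* by 1.47, *Serpina3n* by 2.27, *Timp1* by 1.71 and *Osmr* by 1.45.

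**Figure D3:**
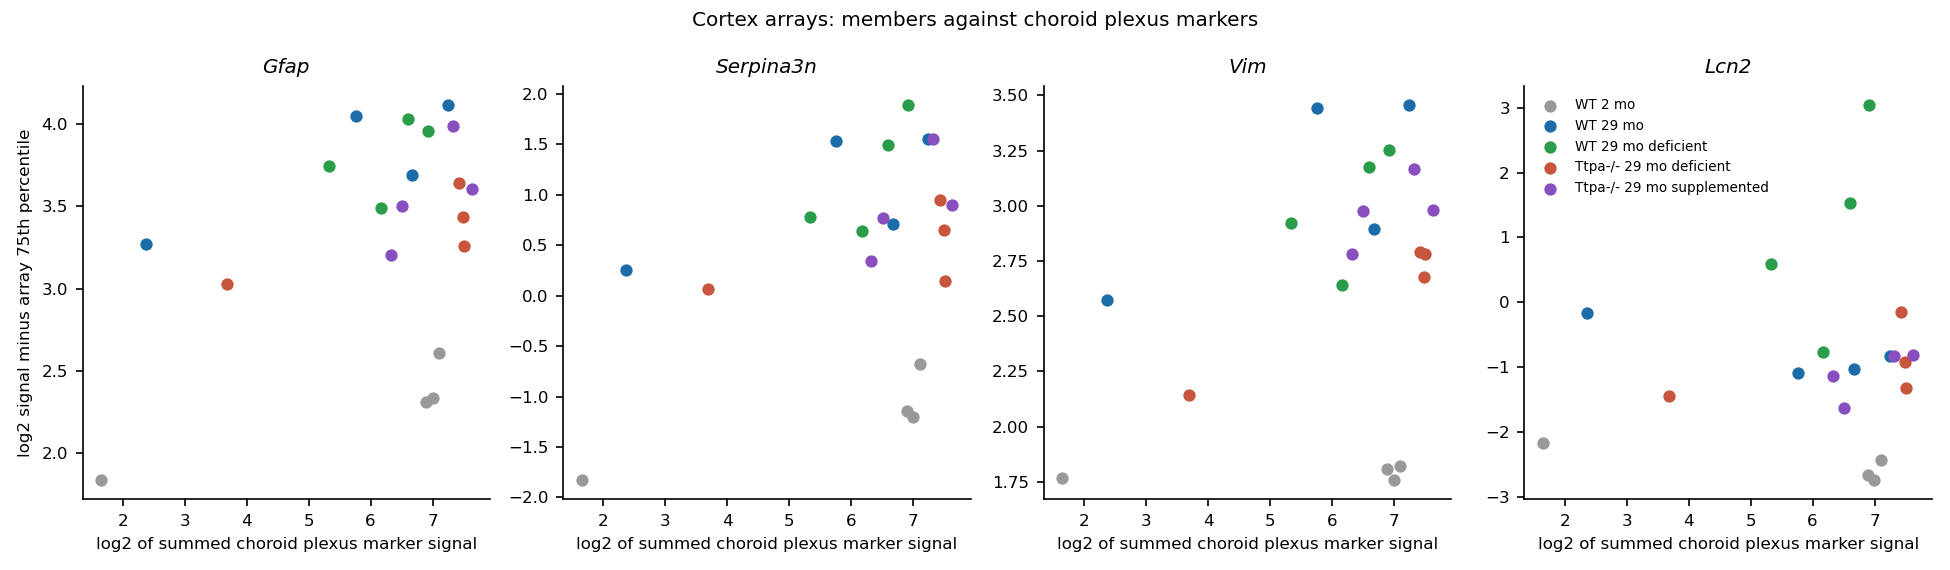
Log2 level of 4 members (y) against the log2 of the summed choroid plexus marker signal (x) on the 20 cortex arrays, coloured by group. The 3 arrays at the left, with summed signals of 3.14, 5.16 and 12.9, were the lowest of their groups for *Gfap* and *Serpina3n*, and the aged array among them, at 3.27 for *Gfap*, still lay above all young arrays.

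The deficient diet alone, in wild-type mice of 29 months, gave no call. In the cortex 0 of 9 members tested were called by limma, against 0.223% of 28254 probes, and 0 by the methods' t-test, although 2 had an unadjusted limma p under 0.05. In the cerebellum 0 of 9 were called, against 1.28% of 30990 probes, again with 0 by the methods' t-test and 2 with an unadjusted p under 0.05. Aged and deficient wild-type cerebellum shared a slide. By the brightest probe the groups overlapped for every member in both regions, where 10% and 16.8% of probes did not overlap. *Gfap* probe 2 did not overlap in the cerebellum, at -0.45 ± 0.20 (SE; adjusted p = 0.187). For *Gfap* the difference, deficient minus aged, was 0.02 (95% interval -0.35 to 0.40) in cortex and -0.17 (95% interval -0.54 to 0.21) in cerebellum.

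*Lcn2* differed most, and unevenly among mice. On the 4 deficient wild-type cortex arrays its log2 level was 3.05, 1.53, 0.59 and -0.77, in the order of replicate number. On the 4 cerebellum arrays it was 3.14, 2.27, 0.08 and -1.47. Arrays 1, 2 and 3 of the deficient cortex lay above all 4 aged arrays, and array 4 lay among them. The mean difference was 1.88 ± 0.65 (SE; adjusted p = 0.153) in cortex and 1.27 ± 0.65 (SE; adjusted p = 0.259) in cerebellum. Without array 4 of the deficient group *Lcn2* was called, at 2.50 in cortex (adjusted p = 0.0262) and 2.10 in cerebellum (adjusted p = 0.0306), and without array 1 the differences were 1.23 and 0.56 and did not pass.

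*Osmr* and *Serpina3n* showed the same array at the top. *Osmr* was at 1.48, 0.61, 0.45 and -0.07 in deficient wild-type cortex and at 0.91, -0.23, -0.22 and -0.90 in the cerebellum. *Serpina3n* was at 1.89, 1.49, 0.77 and 0.64 in cortex and at 1.25, -0.06, -0.57 and -1.77 in cerebellum. In both regions array 1 was the highest and array 4 the lowest of the 4 for all 3 genes. *Osmr* differed from the aged group by 0.55 ± 0.26 (SE; adjusted p = 0.297) in cortex and 0.64 ± 0.26 (SE; adjusted p = 0.144) in cerebellum, and was called in cerebellum without array 4, at 0.91 (adjusted p = 0.0288).

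Over the 20 pairs of cortex and cerebellum arrays with the same group and number, the deviations from the group means correlated at 0.89 for *Lcn2* and 0.85 for *Osmr*. Without the deficient wild-type pairs, over 16 pairs, the correlations were 0.60 and 0.53. Those of the other 8 members over 20 pairs ran from -0.51 for *Vim* to 0.57 for *Cd44*. The labels do not state that a number marks a mouse, and the arrays of a pair share their diet and genotype.

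The neutrophil list was not highest on the array where *Lcn2* was. Its summed signal was 2.92, 8.85, 4.00 and 1.29 in deficient wild-type cortex and 7.82, 91.1, 9.17 and 2.14 in the cerebellum, by array number. Array 2 was the highest and array 4 the lowest in both regions. The correlation of *Lcn2* with this list, in deviations from the group means over 20 arrays, was 0.48 in cortex and 0.61 in cerebellum, and that of *Osmr* 0.25 and 0.15. The striatal list was 125, 84.3, 57.7 and 59.2 in the deficient wild-type cortex, highest on array 1, and its deviations correlated with *Lcn2* at 0.58 and with *Osmr* at 0.71. It was also highest on array 1 in the deficient wild-type cerebellum, at 67.86, 58.1, 57.58 and 51.84. Its deviations there correlated with *Lcn2* at 0.58 and with *Osmr* at 0.47, so this order was not particular to the cortex. The acute-phase and stress list, *Hmox1*, *Mt1*, *Mt2*, *Cdkn1a*, *Fkbp5* (also on the A1-like list) and *Sgk1*, followed the order of *Lcn2*. Its summed signal was 641.4, 515.8, 455.1 and 330.6 on the deficient wild-type cortex arrays and 747.6, 684.1, 631.4 and 461.1 on the cerebellum arrays, by array number. In aged mice it was 367 to 396.6 and 424 to 670.3. Its deviations correlated with *Lcn2* at 0.80 in cortex and 0.61 in cerebellum and with *Osmr* at 0.80 and 0.58, and 0 of its 6 genes were called with the deficient diet in wild-type cortex or cerebellum. The list of meninges and fibroblasts had the same order in deficient wild-type cortex, at 381.6, 370.8, 346.5 and 316.6. In the cerebellum it was at 336.3, 350.7, 297.4 and 282.6, highest on array 2. Its deviations correlated with *Lcn2* at 0.48 in cortex and 0.50 in cerebellum, and with *Osmr* at 0.21 and 0.31. The part of these cells and of the stress genes in the spread of *Lcn2* was not tested.

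**Figure D4:**
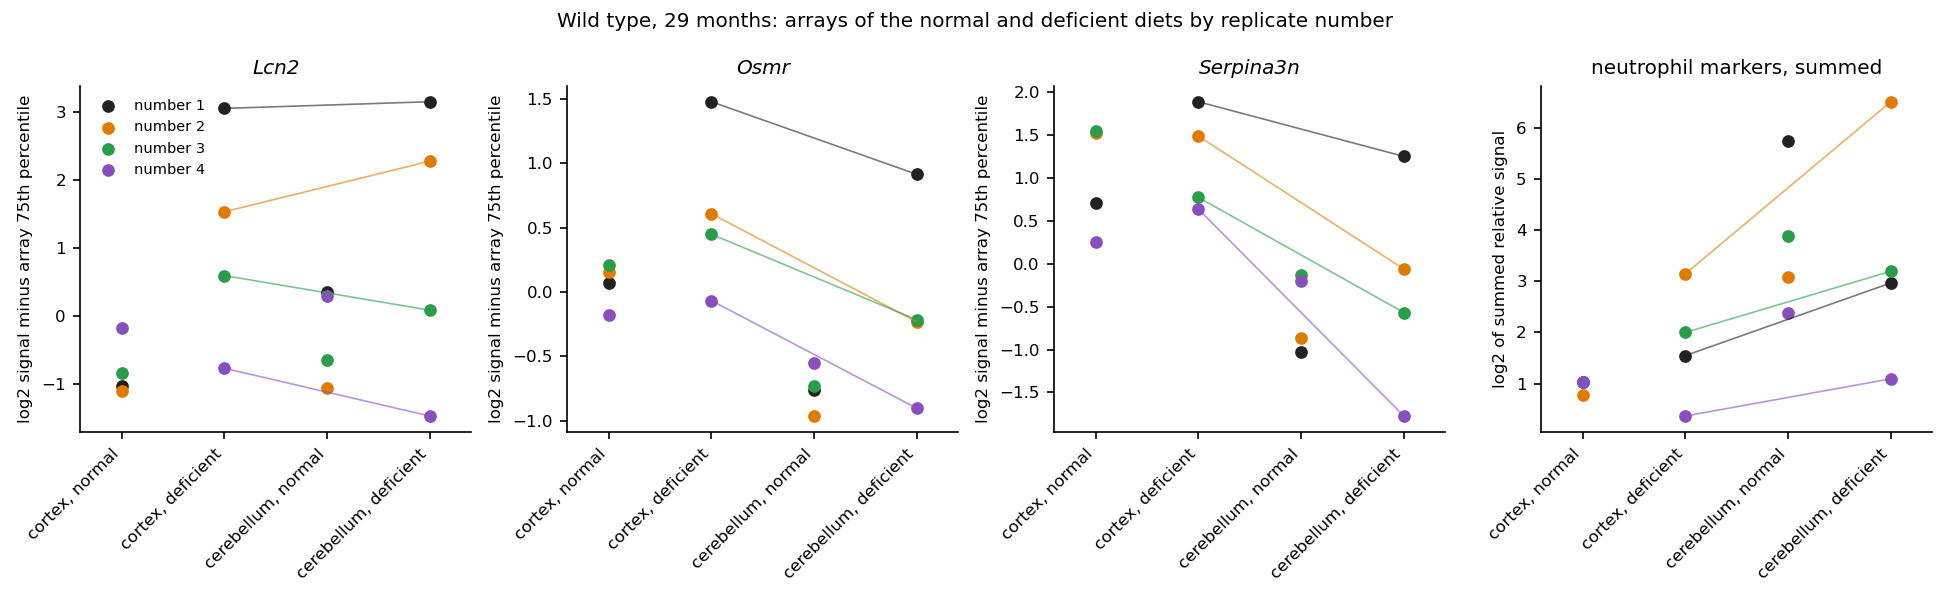
Log2 level of *Lcn2*, *Osmr* and *Serpina3n*, and log2 of the summed neutrophil marker signal, on the wild-type arrays of 29 months, by region and diet. Colours are replicate numbers, and lines join same-numbered deficient arrays of cortex and cerebellum. Array 1 was highest for the 3 genes in both regions, at 3.05 and 3.14 for *Lcn2*, while array 2 was highest for the neutrophil markers.

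Deficient *Ttpa*-/- mice were compared with the aged wild-type group, which changes genotype and diet together. In the cortex 0 of 9 members were called by limma and 0 by the methods' t-test, against 4.75% of 28913 probes, while 3 had an unadjusted limma p under 0.05. All groups overlapped, where 23.4% of probes did not. *Vim* was at 2.14, 2.68, 2.79 and 2.78, lower by 0.50 ± 0.16 (SE) than in the aged group on the log2 scale (adjusted p = 0.0255), short of 1.5-fold. *Timp1* was at -2.96, -2.33, -2.25 and -1.93, with a difference of -0.65 ± 0.24 (SE; adjusted p = 0.0502). *Gfap* was at 3.03, 3.44, 3.64 and 3.26, with a difference of -0.44 ± 0.18 (SE; adjusted p = 0.0893). Without aged array 4, one of the arrays low in choroid plexus markers, *Gfap* (-0.61), *Vim* (-0.67) and *Timp1* (-0.90) were called lower. Without all 3 such arrays 0 were called.

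In the cerebellum *Gfap* was the only member called, against 4.46% of 30604 probes. It was at 3.25, 3.47, 3.32 and 3.15 in deficient *Ttpa*-/- and at 3.67, 3.95, 3.86 and 4.29 in aged wild-type mice, with no overlap, where 17% of probes did not overlap. *Gfap* was lower by 0.64 ± 0.18 (SE) on the log2 scale, 1.56-fold (adjusted p = 0.0185). The other 2 *Gfap* probes were lower by 0.74 (adjusted p = 0.0126) and 0.83 (adjusted p = 0.00503). The call of the brightest probe was lost without aged array 4 (-0.53) and without deficient *Ttpa*-/- array 4 (-0.59). *Timp1* did not overlap either, but its difference of -0.32 ± 0.24 (SE) did not pass (adjusted p = 0.412). In the same comparison 3 of 11 microglial genes were called lower, the complement genes *C1qa* by -0.65 and *C1qb* by -0.81 and *Aif1* by -0.59, with summed microglial signals of 100.2 to 124.5 in deficient *Ttpa*-/- and 121 to 135 in aged cerebellum. Their part in the *Gfap* difference was not tested. *Mbp*, *Mag* and *Opalin* of the 7 oligodendrocyte genes were called lower too.

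The 3 *Gfap* probes did not move alike in the cortex. Probe 1, at chr11:102751813-102751872, and probe 3, at chr11:102752726-102752785, carry the accession of 1 RefSeq transcript, and probe 2, at chr11:102748864-102748923, that of another, all in build mm9 on the minus strand. All 3 were called higher with age, by 1.51, 1.90 and 1.46 in cortex and by 1.87, 1.98 and 1.80 in cerebellum for probes 1, 2 and 3. In deficient *Ttpa*-/- cortex, probes 1 and 3 differed from the aged group by -0.44 and -0.48 and probe 2 by 0.29 ± 0.20 (SE; adjusted p = 0.320). Probe 2 was called in the test of the regional difference of this comparison, at 1.04 ± 0.28 (SE; adjusted p = 0.0227), against 3.38% of 31560 probes called, and probe 1 was not, at 0.20 ± 0.26 (SE; adjusted p = 0.696).

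The difference of probe 2 minus probe 1 within an array, which the array's scaling does not affect, was looked at after these values were seen. It was -1.15, -0.99, -1.04 and -1.13 in aged cortex and -0.14, -0.22, -0.10 and -0.91 in deficient *Ttpa*-/- cortex. All 4 of the latter were above all 4 of the former, 3 of them by far and array 4 narrowly. The mean difference rose by 0.73 (exact permutation test, two-sided, p = 0.0286, the smallest that 4 against 4 allows, and 0.172 after Benjamini-Hochberg adjustment over 12 comparisons). Against supplemented *Ttpa*-/- and deficient wild-type cortex it was 0.56 and 0.73 higher, with overlapping groups. The difference also rose with age in cortex, by 0.40 from young to aged within 1 slide and without overlap (exact p = 0.0286, 0.172 after adjustment), so a shift between these probes was not particular to deficient *Ttpa*-/- mice. In the cerebellum deficient *Ttpa*-/- against aged mice gave -0.10 (exact p = 0.514). Deficient *Ttpa*-/- cortex was on another slide than these 3 groups, so slide and group cannot be told apart.

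**Figure D5:**
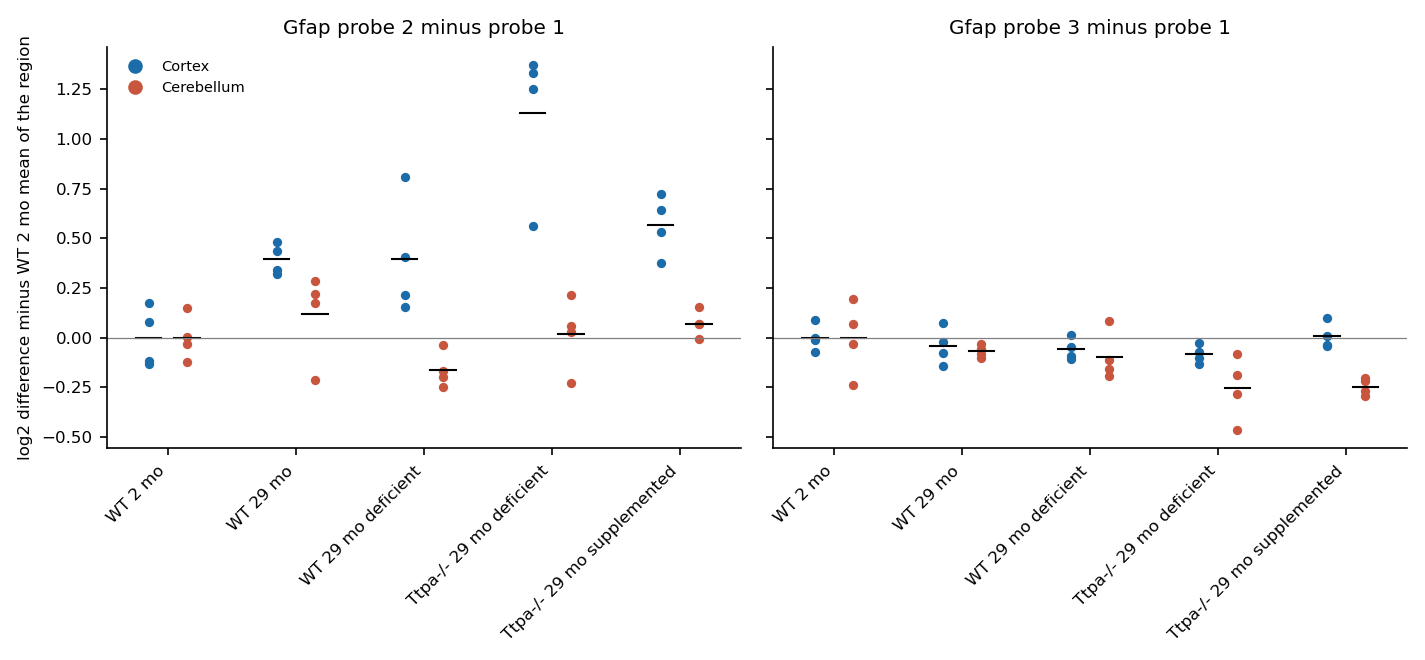
Difference between 2 *Gfap* probes within each array, shown relative to the mean of the young group of the same region, for probe 2 minus probe 1 (left) and probe 3 minus probe 1 (right). Points are arrays, blue cortex and red cerebellum, and lines are group means. Deficient *Ttpa*-/- cortex stood highest for probe 2, while probe 3 followed probe 1 in the cortex.

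On the deficient diet, *Ttpa*-/- and wild-type mice differed in 3 cortex members. *Timp1*, *Lcn2* and *Osmr* were called lower in *Ttpa*-/- mice, against 3.07% of 29061 probes called. *Lcn2* was at -1.44, -0.92, -0.16 and -1.32 in deficient *Ttpa*-/- and at 3.05, 1.53, 0.59 and -0.77 in deficient wild-type cortex, lower by 2.06 ± 0.65 (SE) on the log2 scale (adjusted p = 0.0340). *Osmr* was at -0.70, -0.07, 0.06 and -0.12 against 1.48, 0.61, 0.45 and -0.07, lower by 0.83 ± 0.26 (SE; adjusted p = 0.0321). *Timp1* was at -2.96, -2.33, -2.25 and -1.93 against -1.21, -1.27, -1.65 and -2.55, lower by 0.69 ± 0.24 (SE; adjusted p = 0.0490). All 3 pairs of groups overlapped through deficient wild-type array 4. None of the 3 was called without deficient wild-type array 1 or 2 or without *Ttpa*-/- array 1, and the differences without wild-type array 1 were -1.41 for *Lcn2*, -0.54 for *Osmr* and -0.54 for *Timp1*. All 3 also lost the call when only the compared groups were fitted.

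The brightest *Cd44* probe had values the other way. In this comparison it was at -0.51, -0.39, -0.47 and -0.51 in deficient *Ttpa*-/- and at -1.08, -0.75, -0.88 and -0.59 in deficient wild-type cortex. It was the only member whose groups did not overlap, against 17.2% of probes, with a difference of 0.35 ± 0.14 (SE; adjusted p = 0.0846). In the cerebellum it was at 0.09, 0.42, 0.10 and 0.27 against -0.64, -0.19, -0.07 and 0.04, also without overlap, at 0.44 ± 0.14 (SE; adjusted p = 0.0343), under 1.5-fold. The dimmer *Cd44* probe 2 differed in the opposite direction. In the cerebellum, where it was above background on all 8 arrays, its difference was -0.41 ± 0.28 (SE; adjusted p = 0.349) with overlapping groups, and in the cortex, where it was above background on 1 and 2 of 4 arrays, it was -0.41 and was not tested.

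In the cerebellum 0 of 9 members were called between the genotypes on the deficient diet, by limma or by the adjusted methods' t-test, against 4.94% of 30552 probes, and 6 had an unadjusted limma p under 0.05. *Gfap*, *Timp1* and *Cd44* did not overlap between the groups, against 13.5% of probes. *Timp1* was at -1.39, -1.59, -1.55 and -1.24 against -0.58, -0.72, -0.76 and -1.02, a difference of -0.67 ± 0.24 (SE; adjusted p = 0.0573). The dimmest *Gfap* probe, probe 3, was called lower, by 0.63 ± 0.20 (SE) on the log2 scale (adjusted p = 0.0290), while the brightest was not, at -0.47 ± 0.18 (SE; adjusted p = 0.0835). *Serpina3n* differed by -1.05 ± 0.42 (SE; adjusted p = 0.0953) and *Lcn2* by -1.62 ± 0.65 (SE; adjusted p = 0.0965). Without deficient wild-type array 4, *Serpina3n*, *Timp1*, *Lcn2* and *Osmr* were called lower, by -1.54, -0.75, -2.45 and -0.90. Beside the members, *Ptgs2*, which encodes cyclooxygenase 2, was lower by 1.57 on the log2 scale (adjusted p = 0.00350) and *Socs3* by 0.76 (adjusted p = 0.0373). The comparisons on the deficient diet share the deficient wild-type arrays.

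Supplemented *Ttpa*-/- mice did not differ from aged wild-type mice in any member by the test. In the cortex 0 of 9 were called by limma or the methods' t-test, against 0.092% of 28268 probes, with 1 at an unadjusted p under 0.05 and all groups overlapping, where 6.87% of probes did not, and in the cerebellum 0, against 4.91% of 31265 probes, with 0 at an unadjusted p under 0.05. The largest difference in cortex was that of *Timp1*, -0.64 ± 0.24 (SE; adjusted p = 0.359), with a 95% interval of -1.12 to -0.16. In the cerebellum *Timp1*, at -0.37 ± 0.24 (SE; adjusted p = 0.319), was the member whose groups did not overlap, where 21.3% of probes did not.

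Between the deficient and the supplemented diet in *Ttpa*-/- mice, 0 of 9 members were called in cortex, against 3.31% of 29077 probes, with 2 at an unadjusted p under 0.05, and 0 in cerebellum, against 0.343% of 30643 probes, with 0 at an unadjusted p under 0.05. The methods' t-test called 0 in both regions. The 2 cerebellum groups shared a slide. In the cerebellum all members overlapped, where 5.32% of probes did not. *Gfap* differed by -0.23 (95% interval -0.61 to 0.14) in cortex and -0.35 (95% interval -0.72 to 0.03) in cerebellum. In the cortex *Cd44* was the member without overlap, against 19% of probes, at 0.38 ± 0.14 (SE; adjusted p = 0.0592). In the regional tests of the 5 comparisons other than ageing, 0 members were called by their brightest probe, where 0.0126% (deficient diet in wild type), 3.38% (deficient *Ttpa*-/- against aged), 0.957% (supplemented *Ttpa*-/- against aged), 0.0441% (diet in *Ttpa*-/-) and 0.795% (genotype on the deficient diet) of probes were. The regional difference of *Vim* was -0.63 ± 0.22 (SE; adjusted p = 0.0757), cortex minus cerebellum, for deficient *Ttpa*-/- against aged mice.

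Few of the listed genes that are no members were called in deficient *Ttpa*-/- cortex. Against aged cortex 2 of the 4 genes raised in both types of reactivity were called, both lower, with 0 of 10 A1-like and 0 of 8 A2-like genes and 0 of 15 astrocyte genes not tied to reactivity, where 4.75% of probes were called. Against supplemented *Ttpa*-/- cortex 1 of the 4 was higher and 1 lower, with 0 of 10, 0 of 8 and 1 of 15 called in the other lists, where 3.31% of probes were called. Against deficient wild-type cortex 2 of the 4 were lower, with 0 of 10, 1 of 8 and 1 of 15 called, where 3.07% of probes were called. *Aspg* was lower by 0.72 on the log2 scale than in aged (adjusted p = 0.00311), by 0.61 than in supplemented *Ttpa*-/- (adjusted p = 0.0137) and by 0.66 than in deficient wild-type cortex (adjusted p = 0.00981). *Cxcl10* was lower by 0.94 than in aged cortex (adjusted p = 0.0439), and *Hspb1*, a small heat shock protein gene, was higher by 0.76 than in supplemented *Ttpa*-/- cortex (adjusted p = 0.00785). Against deficient wild-type cortex *Cp*, for ceruloplasmin, was lower by 0.62 (adjusted p = 0.0451) and the A2-like *Cd14* by 0.59 (adjusted p = 0.0488). *Nes*, for the filament protein nestin, had been placed on the list not tied to reactivity, although reactive astrocytes can also express it. *Nes* was higher by 0.66 than in supplemented *Ttpa*-/- (adjusted p = 0.00777) and by 0.73 than in deficient wild-type cortex (adjusted p = 0.00502). The acute-phase and stress list is no list of reactive genes, though it shares *Fkbp5* with the A1-like list. Of this list, the metallothionein genes *Mt2* and *Mt1* were lower than in deficient wild-type cortex by 1.11 (limma, adjusted p = 0.00290) and 0.62 (adjusted p = 0.0138). *Mt2* was also lower than in aged cortex, by 0.78 (adjusted p = 0.0182). These comparisons share the deficient *Ttpa*-/- arrays.

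The members' levels were also compared with each other across arrays. Over the 45 pairs of the 10 members, the correlation across the 20 cortex arrays had a median of 0.46, and of the deviations from group means 0.45, with 39 of 45 pairs above 0. In the cerebellum the medians were 0.56 and 0.18, with 28 of 45 pairs of deviations above 0. These correlations are over arrays that share groups. They include the pairs of *Steap4*, which was above background on 0 arrays, at -0.12 to 0.41 in cortex and -0.21 to 0.29 in cerebellum. Across the 20 cortex arrays the genes most like *Gfap* were *Serpina3n* (r = 0.99), *Lgals3* (r = 0.97) and *Bcl3* (r = 0.97), and across the cerebellum arrays *Gusb*, *5730416F02Rik* and *Tyrobp* (each r = 0.98). For *Serpina3n* they were *Gfap*, *Krtap11-1* and *Bcl3* in cortex (r = 0.99, 0.97 and 0.96) and *Clec4d*, *Lilrb4* and *Ms4a6d* in cerebellum (each r = 0.96). For *Lcn2* they were *Ctla2b*, *Pnpla2* and *Fkbp5* in cortex (r = 0.95, 0.94 and 0.94) and *Ly6c1*, *Cp* and *Map3k6* in cerebellum (r = 0.95, 0.94 and 0.92). For *Vim* they were led by *Lyz1* in cortex (r = 0.97) and by *Fgf5* in cerebellum (r = 0.88).

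The remaining *Cd44* probes were dim. Probe 2 was above background on 25 arrays and was called higher in aged than in young cerebellum, by 1.24 ± 0.28 (SE; adjusted p = 0.00289). Probe 3 was above background on 1 array and probe 4 on 0 of 40. The difference of these probes from the brightest one was not tested.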

How the data were processed

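RNA of cortex and cerebellum was hybridised to 40 one-colour Agilent arrays, 4 per group in 10 groups. Groups and replicate numbers were taken from the sample labels. The deposited scanner files hold spot intensity values: per the file headers Agilent Feature Extraction 10.7.3.1 made the processed signal by background subtraction and detrending, with no scaling between arrays (the labels name 10.1.1.1). They also hold 0 or 1 flags. The deposited value table holds log2 values, which differed from the log2 processed signal minus the array's 75th percentile, centred on probe means, by a median of 0.00085, with column medians from -0.2354 to 0.1846. It was used as an alternative. Of 61 scanner columns, 14 were used.

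Control spots and outlier flags were left out, spots of 1 probe were averaged, and 92 probes without a value on some array were dropped, leaving 55589. The log2 processed signal minus the array's 75th percentile was fitted with limma 3.58.1 in R 4.3.3 over all 10 groups without a replicate block. Tests took the probes that all 4 arrays of 1 or more compared groups had well above background, with Benjamini-Hochberg adjustment. Calls needed an adjusted p under 0.05 and over 1.5-fold. A gene's brightest probe, by its mean of the 40 arrays, stood for it. Steps across many probes were tested on simulated data.

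All 10 members are named. From each marker list at most 3 called genes with the largest change in each direction per comparison could be named, and for *Gfap*, *Vim*, *Serpina3n* and *Lcn2* the 3 genes with the highest correlation per region. The members and lists were chosen with earlier results of these data known. Marker sums are sums over a list of the signal divided by the array's 75th percentile. Exact permutation tests were two-sided. Alternatives were median scaling, quantile normalization, normexp (offset 50), the deposited values, dim probes kept, the compared groups only, the methods' t-test, the mean of a gene's probes, an adjusted p alone, the replicate number as a block and leaving out each array. Added after the data were seen were an unadjusted p, cortex without 3 arrays low in choroid plexus markers, and the *Gfap* probe difference. Only 4 arrays a group limit the precision. Coordinates of probes are in mm9 and of promoters in GRCm38.p6, and were not mixed. Figures used matplotlib 3.10.9.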

Additional observations from a re-analysis of the deposited data

Results flagged for a closer look

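*Vim*, for the filament protein vimentin, and *S1pr3*, a sphingosine 1-phosphate receptor gene, differed between regions in their change with age by the test of the difference itself. *Vim* changed by 1.19 more on the log2 scale in cortex than in cerebellum (limma, adjusted p = 0.00208), and *S1pr3* by -0.71, cortex minus cerebellum (adjusted p = 0.00754). The *Vim* call held in all 27 alternatives, and that of *S1pr3* was lost with median scaling and with normexp. Young and aged cerebellum were on different slides, so slide and age cannot be told apart in this test.

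In 2 of 100 sets of 4 arrays, 1 for each gene and group, a single array stood apart from the other 3 by Dixon's criterion, where chance gives about 1 in 20. Both were *S1pr3*. Deficient wild-type cortex array 2 was at -0.35 with the nearest array at -0.60, and young cerebellum array 3 was at -2.32 with the nearest at -2.14.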

How the results depend on the processing

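Of 450 recomputed counts of called members over 20 comparisons, 411 stayed within 1.5 times the count given and 39 did not. In most of these comparisons the count was 0, and a 0 that stays 0 says little about stability. No called member changed direction. In aged against young cortex *Gfap*, *Vim* and *Osmr* were called in all 21 alternatives, at 1.36 to 1.68, 1.18 to 1.48 and 1.13 to 1.49, and *Serpina3n* (1.89 to 2.47) and *Timp1* (0.80 to 1.75) lost the call by the adjusted methods' t-test only. In the cerebellum, over 20 alternatives, *Gfap* (1.75 to 1.96), *Serpina3n* (2.22 to 3.70), *Timp1* (1.09 to 1.81), *Osmr* (1.04 to 1.43) and *S1pr3* (0.63 to 0.92) were called in all, *Cd109* (0.49 to 1.99) in 19 and *Lcn2* (1.56 to 2.33) in 11. The count of 3 for genotype on the deficient diet in cortex fell to 0 with median scaling, no filter on dim probes, the compared groups only, the methods' t-test adjusted or unadjusted, and without the 3 cortex arrays low in choroid plexus markers. For deficient *Ttpa*-/- against aged cerebellum the count of 1 became 0 with median scaling, the compared groups only and the adjusted t-test, and 2 with the unadjusted t-test. For genotype on the deficient diet in cerebellum the count of 0 became 1 with median scaling, quantile normalization, the compared groups only, the unadjusted t-test and an adjusted p alone, and 4 with an unadjusted p. An unadjusted p gave 1 in place of 0 for the deficient diet in wild-type cortex and cerebellum, for deficient and supplemented *Ttpa*-/- against aged cortex and for the regional test of deficient *Ttpa*-/- against aged. An adjusted p alone gave 1 for deficient *Ttpa*-/- against aged cortex. The 2 regional differences with age fell to 1 with median scaling and normexp, and the 5 differences between regions at 2 months to 3 with normexp. The cause of these changes was not tested.

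Leaving out 1 array gave counts of 0 to 1 for the deficient diet in wild-type cortex (1 without deficient wild-type array 4) and 0 to 2 in cerebellum (2 without array 4). It gave 0 to 3 for deficient *Ttpa*-/- against aged cortex (3 without aged array 4, 1 without *Ttpa*-/- array 4) and 0 to 1 in cerebellum (0 without array 4 of either group). For genotype on the deficient diet it gave 0 to 3 in cortex (0 without wild-type array 1 or 2 or *Ttpa*-/- array 1, 1 without wild-type array 3 or *Ttpa*-/- array 2) and 0 to 4 in cerebellum (4 without wild-type array 4), and for the regional test of deficient *Ttpa*-/- against aged 0 to 1 (1 without cortex array 4 of either group).

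Over all probes the deviations of samples with the same replicate number correlated at -0.45 to 0.66. Of 56 pairs 26 were over 0.1, with all pairs over 0.1 in 0 of 14 comparisons, and the numbers were not treated as pairs. Comparisons within a region are of different mice, so they cannot show whether a number marks a mouse. Between cortex and cerebellum the correlation over these probes was computed for the young and the aged group only, at -0.16 to 0.13 and -0.16 to 0.38. Over the same-numbered pairs of all groups, *Lcn2* and *Osmr* correlated between regions at 0.89 and 0.85, and the other members at -0.51 to 0.57. The tests between regions took the regions as independent. With the replicate block 19 of 20 counts were the same, and that for genotype on the deficient diet in cortex was 2. Slide as a block could not be fitted. Median scaling moved the median change of the probes tested in a comparison by up to 0.27 on the log2 scale. That largest shift was in the regional test of the deficient diet in wild-type mice. *Steap4* and 2 of the 4 *Cd44* probes were at or near background, so no change could be read for them.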
